A study of Mus musculus with 4 samples.

Results

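The zinc finger cluster on distal chromosome 4 of the mouse was examined in a table of H3K27ac HiChIP contacts from embryonic stem cells. Its members were the pairs of anchors in which at least 1 anchor overlapped the stretch of chromosome 4 from 145.4 to 147.9 Mb of the GRCm38 (mm10) assembly. An anchor is an interval of the genome that here begins at a site of DpnII, the enzyme that cut the chromatin, and a pair carries the number of read pairs that joined its anchors. The window held 3479 of the 1513030 pairs of the whole table and 101 of its 56562 anchors. The cells were of the strains C57BL/6J (B6; lines B6 4-1 and B6 5-1) and DBA/2J (D2; lines D2 2-9 and D2 5-5), with 1 library from each line. The labels name no engineered allele and no treatment for any line, and all were grown with LIF, PD0325901 and CHIR99021. The labels call the lines of a strain biological replicates and do not say whether they came from separate embryos. The lines are called lines 1 and 2 of a strain in that order, and an SD given here is the spread between them. The standard error (SE) of a log2 value comes from the fitted edgeR model, which shares information on spread among features. It therefore need not follow the spread of the lines at a single feature.

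Most protein-coding genes of this window encode zinc finger proteins. In many such proteins an array of fingers that binds DNA is joined to a KRAB domain, which recruits the corepressor Trim28 and, through it, the enzyme Setdb1 that marks nearby histones for silencing. These proteins are best known in mouse embryonic stem cells for silencing retrotransposons, and their genes arose by repeated local duplication, so that neighbours resemble each other closely. H3K27ac, the acetylation that HiChIP enriched here, marks active promoters and enhancers, and a HiChIP count needs both the mark and a ligation between the anchors. A lower count can therefore come with less acetylation, fewer contacts, fewer copies of the DNA or fewer reads that map, and these cannot be told apart in counts without an input library.

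The resemblance is shown by the RefSeq promoters (GRCm38.p6; 250 bases before to 50 after the start) of 3 pairs of genes. In each pair the sequences were close to identical, and the strain differences of the genes are set side by side further on. Of the 25 protein-coding genes with a start in the window, 15 matched a RefSeq promoter within 300 bp of the start of the GENCODE M21 gene. Capitals mark GGGCGG, a GC box, on either strand. The promoters lie at chr4:147702582-147702881 (Zfp534, minus strand), chr4:146097062-146097361 (Zfp987, plus), chr4:147021600-147021899 (Rex2, plus), chr4:146156577-146156876 (Zfp600, plus), chr4:147809739-147810038 (Zfp984, minus) and chr4:145584950-145585249 (Gm13212, plus).
Zfp534: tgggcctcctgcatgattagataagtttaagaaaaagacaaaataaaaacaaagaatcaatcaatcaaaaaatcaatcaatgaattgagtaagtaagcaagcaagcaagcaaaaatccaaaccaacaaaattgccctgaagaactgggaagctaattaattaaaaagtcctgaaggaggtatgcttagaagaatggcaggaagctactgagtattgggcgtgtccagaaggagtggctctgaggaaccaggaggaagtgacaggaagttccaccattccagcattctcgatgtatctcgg
Zfp987: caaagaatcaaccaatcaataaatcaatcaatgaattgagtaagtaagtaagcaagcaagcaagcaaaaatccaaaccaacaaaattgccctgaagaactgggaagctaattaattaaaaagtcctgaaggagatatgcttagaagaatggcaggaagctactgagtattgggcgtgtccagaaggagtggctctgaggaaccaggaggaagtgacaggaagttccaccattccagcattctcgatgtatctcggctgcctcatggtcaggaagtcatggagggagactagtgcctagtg
Rex2: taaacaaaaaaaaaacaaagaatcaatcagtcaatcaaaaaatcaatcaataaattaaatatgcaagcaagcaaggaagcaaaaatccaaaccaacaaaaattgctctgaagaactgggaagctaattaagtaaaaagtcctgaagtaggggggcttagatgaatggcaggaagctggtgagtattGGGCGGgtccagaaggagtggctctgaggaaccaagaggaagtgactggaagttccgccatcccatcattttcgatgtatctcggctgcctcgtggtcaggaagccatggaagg
Zfp600: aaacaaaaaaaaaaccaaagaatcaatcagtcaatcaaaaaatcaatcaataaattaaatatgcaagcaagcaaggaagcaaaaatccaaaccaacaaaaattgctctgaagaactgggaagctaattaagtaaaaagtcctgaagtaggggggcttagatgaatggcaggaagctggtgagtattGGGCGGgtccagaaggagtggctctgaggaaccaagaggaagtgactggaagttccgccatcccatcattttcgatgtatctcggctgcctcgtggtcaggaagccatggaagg
Zfp984: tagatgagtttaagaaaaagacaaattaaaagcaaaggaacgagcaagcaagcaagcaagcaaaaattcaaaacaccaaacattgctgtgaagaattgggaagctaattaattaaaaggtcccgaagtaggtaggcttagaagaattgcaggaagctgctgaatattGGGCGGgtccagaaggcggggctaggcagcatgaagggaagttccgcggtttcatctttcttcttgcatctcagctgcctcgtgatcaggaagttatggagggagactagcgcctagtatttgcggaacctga
Gm13212: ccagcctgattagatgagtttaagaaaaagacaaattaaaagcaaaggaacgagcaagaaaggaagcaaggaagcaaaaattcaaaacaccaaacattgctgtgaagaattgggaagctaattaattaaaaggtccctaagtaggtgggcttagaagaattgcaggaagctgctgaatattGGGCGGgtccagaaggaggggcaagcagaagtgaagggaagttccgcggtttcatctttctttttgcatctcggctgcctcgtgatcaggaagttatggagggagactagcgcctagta

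Zfp534 and Zfp987 differed at 7 of their aligned positions (97.3% identity), Rex2 and Zfp600 at 1 of 300 (99.7%), and Zfp984 and Gm13212 at 15 of 291 (94.8%). Over the 11 promoters of this kind (those of the 10 zinc finger genes other than Zfp933, and of Gm13212) the 55 pairwise identities ran from 69.7% to 99.7%, with a median of 88%. GGGCGG was present in 9 of the 11 and in 35.6% of all 32817 promoters of the same length. It was not among the letters of Zfp534 and Zfp987. CCAAT was in all 11 and in 37.4% of all promoters, and CACGTG and TATAAA were in 0 of the 11 (7.15% and 13.6% of all). CGCG was in 3 of the 11 (38.0% of all) and GATC, the DpnII site, in 2 (48.0% of all). Each motif was searched on both strands, and none contains another. The share of 75-base windows of the promoter that occur once in the reference was 0.442% for Rex2, 6.64% for Zfp600, 51.8% for Zfp987, 70.8% for Zfp534 and 100% for Zfp984 and Gm13212.

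Counts over the whole window were lower in D2. The member pairs held 5289 and 5141 counts in the B6 lines and 3016 and 3663 in the D2 lines. Scaled by the library totals, which lay between 2767882 and 2944258 counts, this was 1819 and 1836 CPM (counts per 1000000 counts of the library) in B6 against 1090 and 1244 in D2. Both D2 lines lay below both B6 lines, with means of 1827 ± 12 (SD, n = 2) and 1167 ± 109 (SD, n = 2) and a log2 ratio of D2 to B6 of -0.65. Pairs with both anchors in the window gave a log2 ratio of -0.70 and pairs that leave it -0.57. With 2 lines a strain, the smallest p of an exact two-sided permutation test is 0.33, so these totals stand as values. Counting error alone is covered by the intervals given further on, and PCR copies of a molecule are not independent of each other.

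Of the 101 anchors, 86 had at least 20 counts over the 4 libraries and were tested, and 15 were not. An anchor's count is the sum over all its pairs, and each was put to the quasi-likelihood test of edgeR, with p-values adjusted by Benjamini-Hochberg over all 51820 anchors tested in the genome. At an adjusted p under 0.05, 54 of the 86 anchors were called, or 62.8%, against 11.2% of all tested anchors. In D2, 48 were lower (8.24% of all anchors) and 6 higher (2.93%). The median log2 fold change of the 86 was -0.97, and that of all tested anchors was -0.03. Both D2 lines lay below both B6 lines at 66 of the 86 anchors (28% of all) and above them at 7 (21.5% of all). Of the 54 called anchors, 33 were called again with each of the 4 libraries left out in turn.

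**Figure D1:**
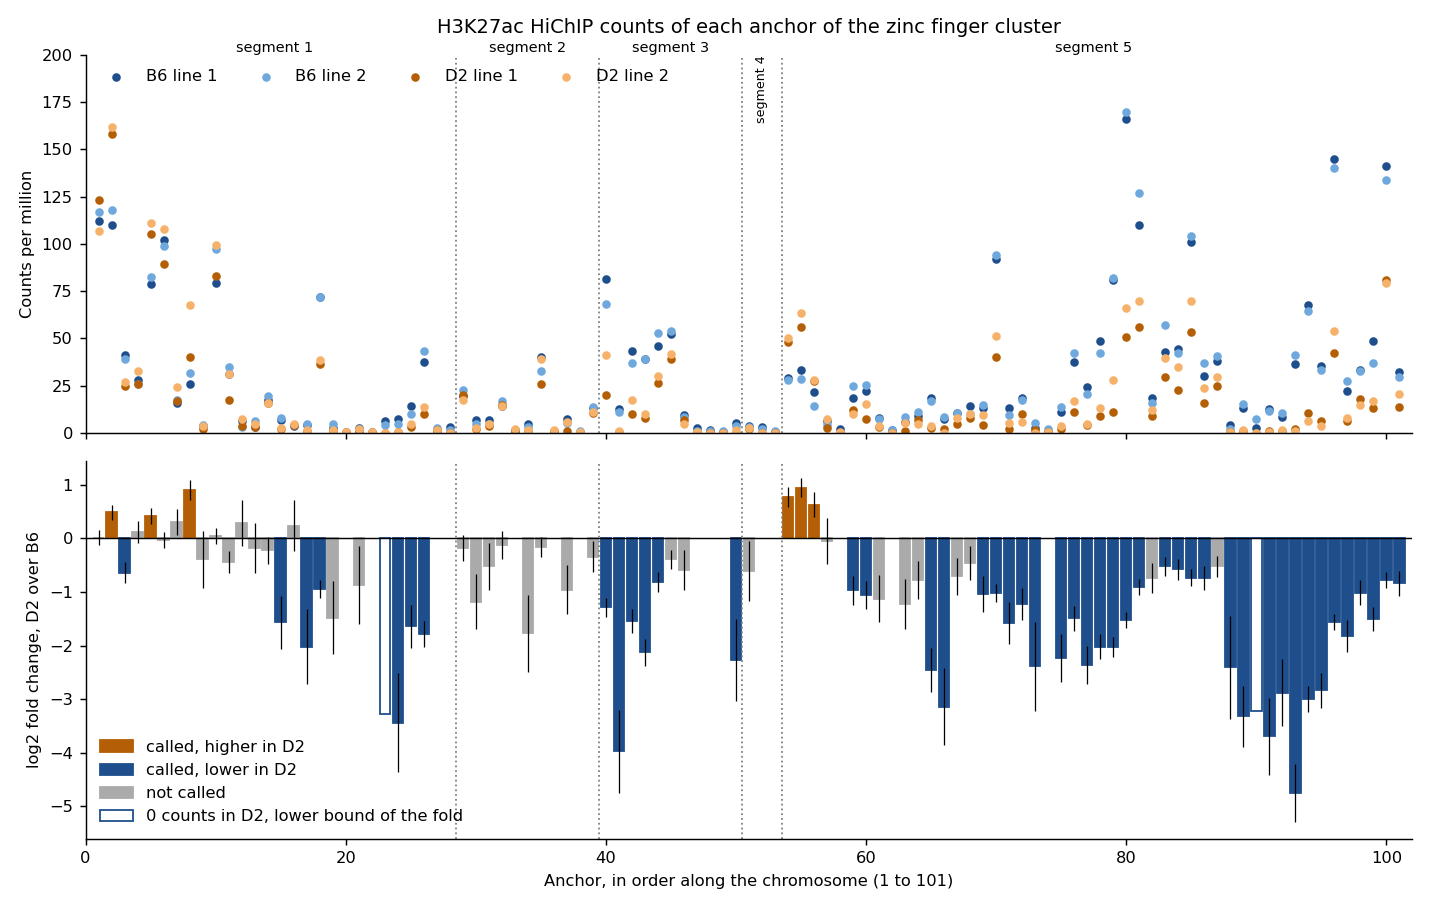
The upper panel plots the CPM of each of the 101 anchors (x axis, along the chromosome) in the 4 libraries, and the lower panel the log2 fold change of D2 over B6 of the 86 tested anchors with its standard error. Dotted lines are the places where the reference has gaps of 50 kb or more. Called anchors that were lower in D2 fill most of segment 5, and those that were higher lie at the start of segments 1 and 5.

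The 2 anchors with the smallest adjusted p were lower in D2 and lay at the distal end, in Zfp984, a zinc finger gene at chr4:147753974-147809788 on the minus strand. The anchor at chr4:147770388-147778718, over an alternative start of Zfp984 inside the gene, held 106 and 115 counts in B6 against 5 and 3 in D2. On the log2 scale D2 differed from B6 by -4.75 ± 0.54 (SE), with an adjusted p of 1.56e-36 by edgeR. The size of this p depended on the settings: it was 6.94e-12 by edgeR with no count minimum and 1.09e-11 by DESeq2. The next anchor, within the gene at chr4:147780653-147789283, held 197 and 181 counts in B6 against 29 and 18 in D2 (log2 -3.0 ± 0.25), and the one after it, at chr4:147790624-147797417, held 102 and 93 in B6 against 17 and 10 in D2 (log2 -2.84 ± 0.33). Counts at these anchors in each D2 line stayed far below those in either B6 line. The anchor at chr4:147802708-147826543, over the main start of the gene, held 423 and 391 counts in B6 against 117 and 159 in D2 (log2 -1.56 ± 0.15). Among these anchors the fold was thus smallest at the one over the main start, although the difference between the anchors was not tested. That anchor also reaches beyond Zfp984, over the pseudogene Rps19-ps3 and part of Zfp933. In the order given, these anchors had 80.7%, 88.4%, 69.7% and 91.7% of 75-base windows that occur once in the reference.

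Another group of anchors with large counts lay within the long non-coding gene C230088H06Rik, between Zfp978 and Zfp982. That at chr4:147411459-147428413, which had the most counts in B6 of all 101, held 482 and 477 counts in B6 against 140 and 194 in D2 (log2 -1.53 ± 0.15). Its neighbour at chr4:147396689-147404146 had 80.8 and 81.8 CPM in B6 against 11.2 and 28.2 in D2 (log2 -2.03 ± 0.19), and without D2 line 2 the log2 value was -2.85. Neither lies over a start site. In the other group, around Zfp992 and Zfp981, the anchor at chr4:146489313-146493449 held 114 and 110 counts in B6 against 21 and 30 in D2 (log2 -2.13 ± 0.26). At 2 of the tested anchors no count was seen in D2. Over the pseudogene Gm13244 the B6 lines held 18 and 11 counts, 9.67-fold what 3 counts over D2 would give. At chr4:147727450-147731162 they held 8 and 20, 9.34-fold what 3 counts over D2 would give. Each of these 2 anchors reached the minimum of 20 counts through B6 alone.

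Of the 6 anchors that were higher in D2, 3 were neighbours at the start of segment 5 and 3 lay among the first 8 anchors of the window. The anchor at chr4:146928522-146939664, over the pseudogene Gm20760, held 96 and 80 counts in B6 against 155 and 186 in D2 (log2 0.95 ± 0.18, edgeR adjusted p = 6.87e-06). Its neighbours over Gm21411 and Gm13140 gave log2 values of 0.78 ± 0.19 and 0.63 ± 0.23. In the proximal part the anchor over Gm21978, at chr4:145557068-145564992, held 75 and 89 counts in B6 against 111 and 199 in D2 (log2 0.91 ± 0.19). The anchor at chr4:145423651-145441456, within the non-coding gene Platr16, held 319 and 330 counts in B6 against 436 and 476 in D2 (log2 0.49 ± 0.14). The intergenic anchor at chr4:145483898-145496599 had 78.7 and 82.5 CPM in B6 against 105 and 111 in D2 (log2 0.42 ± 0.15). The D2 lines lay above the B6 lines at all 6, but 5 of these calls were lost with at least 1 library left out, and that of Gm20760 was not. DESeq2 called 2 anchors of the window higher. The highest adjusted p with 1 library left out was 0.681 for Gm13140, 0.462 for the intergenic anchor, 0.339 for the anchor in Platr16, 0.106 for Gm21978 and 0.0764 for Gm21411. At the start of Platr16 itself (chr4:145404470-145422662) the lines did not separate, with 325 and 327 counts in B6 against 341 and 314 in D2 (log2 0.01 ± 0.14, and -0.10 without D2 line 1).

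Gene by gene, the count of a gene was the sum of all pairs with an anchor over one of its GENCODE M21 start sites. Of 98 genes with the start of at least 1 transcript in the window, 62 had such an anchor and 61 were tested. Of these 40 were called (65.6%, against 14.4% of all 21727 genes tested): 37 were lower in D2 (8.47% of all) and 3 higher (5.91%). Zinc finger genes were taken by symbol alone, as protein-coding genes named Zfp or Znf, and Rex2. Among the 19 such genes, 17 had an anchor. By edgeR 13 of them were lower in D2, 0 were higher and 4 were not called, and 14 had an unadjusted p under 0.05, all lower. Zfp991 and Zfp979 had no anchor over a start. All 17 had a log2 value below 0, with a median of -1.01 against 0.06 for all genes. The symbol rule left out Gm13212 (log2 0.04) and Gm21411 (log2 0.78), the tested protein-coding genes with values above 0. Whether the proteins of these genes hold fingers was not examined.

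Among the zinc finger genes that were lower in D2, Zfp984 had the smallest adjusted p. Its 2 anchors held 517 and 496 counts in B6 against 122 and 162 in D2, or 177 ± 0.478 and 49.5 ± 7.74 CPM (SD, n = 2). The log2 fold change was -1.84 ± 0.15 (edgeR adjusted p = 1.46e-12). Zfp978 held 142 and 118 counts in B6 against 25 and 39 in D2 (log2 -2.02 ± 0.24). Zfp534 had the largest fold among the zinc finger genes, with 39 and 43 counts in B6 against 3 and 5 in D2 (log2 -3.32 ± 0.55, edgeR adjusted p = 1.73e-07). The strains did not overlap at any of these 3 genes.

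Zfp986 held 109 and 121 counts in B6 against 27 and 40 in D2 (log2 -1.78 ± 0.24). Zfp988 held 109 and 118 counts in B6 against 31 and 50 in D2 (log2 -1.49 ± 0.23). Zfp992 held 237 and 191 counts in B6 against 55 and 121 in D2 (log2 -1.29 ± 0.20). The D2 lines lay apart from each other at Zfp992, and without D2 line 2 its log2 value was -1.91. By DESeq2 Zfp992 was not called (adjusted p = 0.119). Zfp980 held 209 and 201 counts in B6 against 101 and 113 in D2 (log2 -0.94 ± 0.16). Zfp985 held 295 and 290 counts in B6 against 148 and 206 in D2 (log2 -0.73 ± 0.15). Zfp933 held 96 and 91 counts in B6 against 50 and 43 in D2 (log2 -1.01 ± 0.22). At each of these genes both D2 lines lay below both B6 lines.

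The same test called 4 more genes lower, each with a call that was lost when a library was left out. Rex2 held 64 and 71 counts in B6 against 20 and 45 in D2 (log2 -1.06 ± 0.27, edgeR adjusted p = 0.00473). Its call was lost without B6 line 2 (adjusted p = 0.056) and without D2 line 1 (adjusted p = 0.138, log2 -0.63), and without D2 line 2 the log2 value was -1.70. By DESeq2 Rex2 was not called (adjusted p = 0.0831). Zfp989 gave log2 -0.97 ± 0.27, with an adjusted p of 0.22 by edgeR without B6 line 2. Zfp993 gave -2.27 ± 0.76 from 15 and 10 counts in B6 against 0 and 5 in D2. Its call was lost without B6 line 1 (adjusted p = 0.191) and without D2 line 1 (adjusted p = 0.21, log2 -1.34), and D2 line 2 held all of its D2 counts. Zfp981 gave -0.53 ± 0.15 over 2 anchors, of which the one at chr4:146494735-146504385 was called (log2 -0.81) and the one at chr4:146510839-146521313 was not (log2 -0.39, edgeR adjusted p = 0.146). The call of the gene was lost without B6 line 1 (adjusted p = 0.0869) or B6 line 2 (adjusted p = 0.232), and that of its first anchor without B6 line 2 (adjusted p = 0.113). At these 4 genes both D2 lines lay below both B6 lines.

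The 4 zinc finger genes that were not called were Zfp990, Zfp987, Zfp600 and Zfp982. Zfp990, the most proximal, held 297 and 277 counts in B6 against 247 and 317 in D2 (log2 -0.03 ± 0.14). Zfp987 held 42 and 48 counts in B6 against 41 and 42 in D2 (log2 -0.12 ± 0.26), and Zfp600 held 116 and 91 in B6 against 71 and 115 in D2 (log2 -0.16 ± 0.20). The strains overlapped at these 3 genes. Zfp982 held 124 and 159 counts in B6 against 81 and 117 in D2 (log2 -0.52 ± 0.19), with both D2 lines below both B6 lines. Its adjusted p was 0.0538 among genes and 0.0405 for the same counts among anchors, where it was called, a call that was lost without B6 line 1, B6 line 2 or D2 line 1. The log2 value of Zfp990 was 0.10 and that of Zfp600 0.11 without D2 line 1, so no direction was fixed for either.

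**Figure D2:**
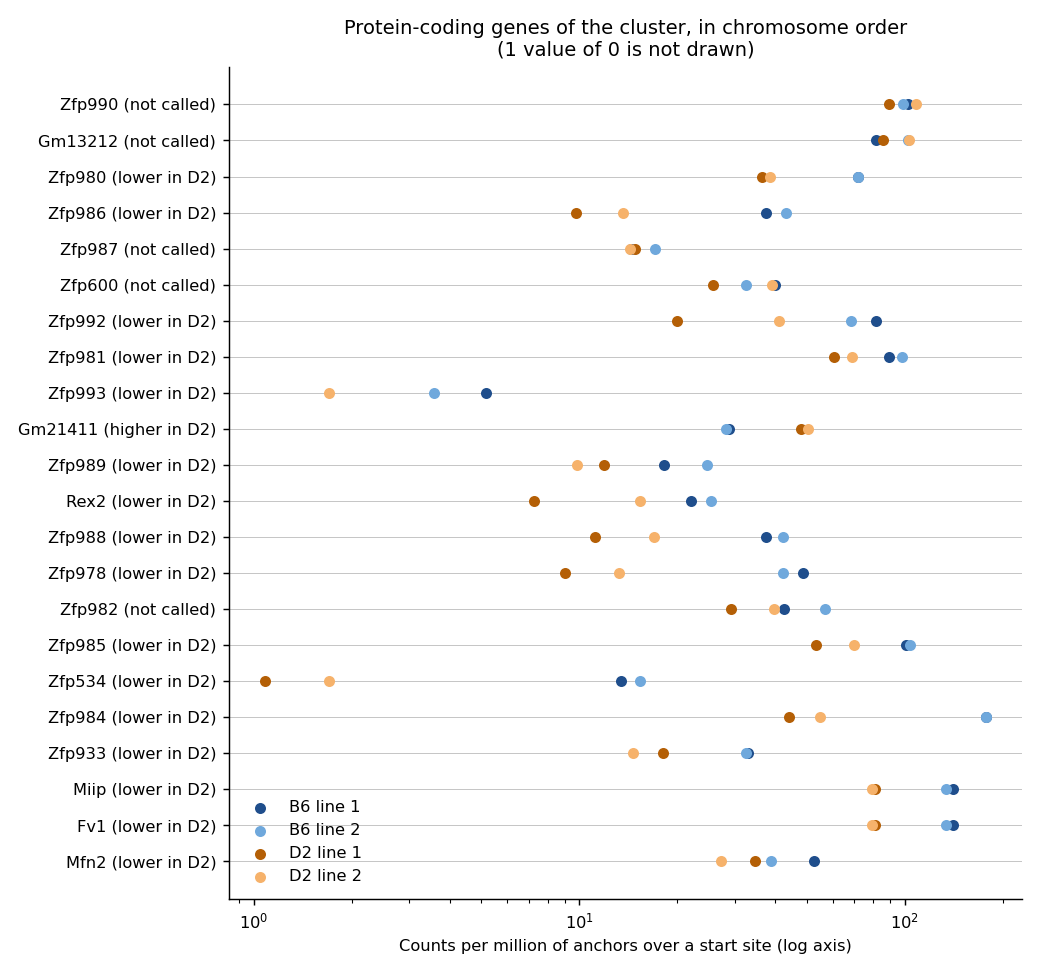
The plot gives the CPM over the start sites of the 22 protein-coding genes with an anchor, in chromosome order (log axis, 1 point for each of the 4 libraries; the 0 of Zfp993 in D2 line 1 is not drawn). The D2 points lie to the left of the B6 points at most genes, overlap them at Zfp990, Gm13212, Zfp987 and Zfp600, and lie to the right at Gm21411.

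The genes whose promoters are printed above are set side by side here. Zfp534 and Zfp987 gave log2 values of -3.32 ± 0.55 and -0.12 ± 0.26, Rex2 and Zfp600 gave -1.06 ± 0.27 and -0.16 ± 0.20, and Zfp984 and Gm13212 gave -1.84 ± 0.15 and 0.04 ± 0.15. Whether the members of a pair differ from each other was not tested, and the pairs were chosen after their values were seen. In each pair the gene with the more negative value lies in segment 5, the part of the window beyond the last large gap of the reference, and the other in segment 1 or 2. Other close promoters differed in this respect. Those of Zfp987 and Zfp988 were 95.8% identical and split in the same way (segments 2 and 5, log2 -0.12 and -1.49). Those of Zfp534 and Zfp988 were 95.9% identical, and both genes lie in segment 5 and were lower in D2 (log2 -3.32 and -1.49). The anchors are wider than the promoters, with 15149 bp at Zfp534 and 31506 bp at Zfp600.

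The other 6 protein-coding genes of the window were not counted as zinc finger genes by the symbol rule. Gm21411, on the minus strand at chr4:146892406-146909590, held 84 and 79 counts in B6 against 133 and 148 in D2 (log2 0.78 ± 0.18, edgeR adjusted p = 0.00214), and was the only protein-coding gene of the 22 that was higher. Its call was lost without B6 line 1 (adjusted p = 0.0509) or B6 line 2 (adjusted p = 0.0575), and DESeq2 did not call it (adjusted p = 0.0705). Gm13212 held 238 and 286 counts in B6 against 237 and 304 in D2, with overlapping strains and a log2 value that was -0.11 without B6 line 1. Miip and Fv1, an endogenous retroviral gene known for restricting murine leukemia virus, start in the same anchor and share its 409 and 376 counts in B6 against 224 and 233 in D2 (log2 -0.78 ± 0.14). Mfn2, a GTPase of mitochondrial fusion that marks the distal edge, held 153 and 109 counts in B6 against 96 and 80 in D2 (log2 -0.57 ± 0.19, edgeR adjusted p = 0.0386), from an anchor just outside the window over its main start; only a shorter transcript starts inside. The call of Mfn2 was lost without B6 line 1 (adjusted p = 0.57) and without D2 line 2 (adjusted p = 0.12). Gm16503 had no anchor over its start. Genes on the distal side of the zinc finger array were thus among those called lower.

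Pseudogenes make up most of the remaining annotation. Of 60 pseudogenes, 32 were tested, 17 were lower (8.47% of all genes) and 2, Gm20760 and Gm21978, were higher in D2 (5.91% of all). Of 13 non-coding RNA genes, 7 were tested, 4 were lower and 0 were higher by edgeR, against the same shares of all genes, with 5 at an unadjusted p under 0.05. Several share an anchor with a zinc finger gene and so repeat its count, as Gm26573 and Gm13153 do with Rex2 and Gm8178 with Zfp978. With an anchor of their own, Gm13136 held 36 and 32 counts in B6 against 3 and 2 in D2 (log2 -3.70 ± 0.68), and Gm13148 held 24 and 29 in B6 against 3 and 4 in D2 (log2 -2.88 ± 0.59). Both lie between Zfp534 and Zfp984 and were named after their values were seen.

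Of the 3479 single pairs of anchors, 1614 had 1 count, and 160, with 43.2% of the member counts, had at least 20. Of these 160, edgeR called 30 (18.8%, against 1.43% of all 108034 pairs tested): 26 were lower in D2 (0.797% of all) and 4 higher (0.634%). DESeq2 called 1 and gave no adjusted p for 27 of the 30, and 7 of the 30 were called again with each library left out in turn. All 30 had both anchors in the window. Of the 54 tested pairs with only 1 anchor in the window 0 were called, although 10 had an unadjusted p under 0.05 by edgeR and 2 by DESeq2. With each library left out in turn fewer pairs were called: 10 pairs were called without B6 line 1, 11 without B6 line 2, 11 without D2 line 1 and 22 without D2 line 2. Of the 26 pairs that were lower, 16 lay within segment 5, 7 within segment 3, and 3 joined these segments.

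Some anchors took part in several of the pairs that were lower in D2. The anchor at chr4:147411459-147428413 took part in 7 of them, that over the main start of Zfp984 in 6, and that over Zfp992 in 6. The first of these had the most counts in B6 of all anchors of the window. An anchor with more counts can have more pairs that reach the count minimum. The numbers were not set against the tested pairs of each anchor, so they do not show that the lower pairs centre on these anchors. Within Zfp984, the pair of its alternative start and the adjoining anchor held 18 and 14 counts in B6 against 0 and 0 in D2, at least 10.7-fold more in B6 (edgeR adjusted p = 9.97e-07). The pair of the alternative and the main start, 40.1 kb apart, held 12 and 10 counts in B6 against 0 and 0 in D2, at least 7.34-fold more. The main start and the anchor at chr4:147853825-147858677 had 16 and 16 counts in B6 against 2 and 2 in D2, and this call was lost without B6 line 1, B6 line 2 or D2 line 1. At these 3 pairs neither D2 line had more than 2 counts.

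In the same direction, the anchor at chr4:147411459-147428413 and that over Gm13161 held 39 and 49 counts in B6 against 12 and 11 in D2 (log2 -1.93 ± 0.37). Zfp992 and Gm13241 were joined by 20 and 14 counts in B6 against 0 and 3 in D2, a ratio of 11.3 (95% exact interval 3.57 to 57.7). This call was lost without B6 line 1 and without D2 line 1, where the fitted log2 value was -2.50, and without D2 line 2 no D2 count was left. The anchor at chr4:146489313-146493449 and its neighbour over Zfp981 held 14 and 23 counts in B6 against 2 and 1 in D2, a ratio of 12.3 (3.91 to 62.6), and this call was lost without B6 line 2. The B6 libraries lay above the D2 libraries at all 3 pairs.

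The 4 pairs that were higher in D2 were of a short and a long kind. Within segment 1, the anchor in Platr16 joined that over Gm21978 with 4 and 4 counts in B6 against 18 and 15 in D2 (log2 2.01 ± 0.60), and that over Gm13212 with 12 and 9 in B6 against 30 and 26 in D2 (log2 1.41 ± 0.40). Both of these calls were lost without B6 line 1, without B6 line 2 and without D2 line 1. The other 2 pairs span most of the window and end on Gm20760. The intergenic anchor at chr4:145483898-145496599 and Gm20760, 1443844 bp apart, had 0 and 0 counts in B6 against 18 and 22 in D2, at least 13.3-fold more in D2 (edgeR adjusted p = 1.32e-08). Zfp990 and Gm20760 had 0 and 0 counts in B6 against 9 and 12 in D2, at least 7-fold more (edgeR adjusted p = 0.000181), a call lost without B6 line 1 or B6 line 2. The reference bases at the proximal edges of the 3 anchors of these long pairs are given on the plus strand, with the DpnII site GATC in capitals (chr4:145483898-145483957, chr4:145498251-145498310 and chr4:146928522-146928581).
intergenic anchor: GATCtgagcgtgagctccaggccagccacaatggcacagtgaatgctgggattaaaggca
Zfp990: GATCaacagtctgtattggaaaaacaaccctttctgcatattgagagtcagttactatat
Gm20760: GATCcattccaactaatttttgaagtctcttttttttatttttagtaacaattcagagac

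The contacts of Gm20760 with segment 1 (chr4:145404470-145897874) were then counted in full, a choice made after the values were seen. The anchor had 3 and 1 counts with segment 1 in the B6 lines and 55 and 73 in the D2 lines. As shares of its counts these were 3.12% (95% exact binomial interval 0.649 to 8.86%) and 1.25% (0.0316 to 6.77%) in B6, and 35.5% (28 to 43.6%) and 39.2% (32.2 to 46.7%) in D2. Of its 14 partners in segment 1, 12 had no count in B6 and 55 and 71 counts in the D2 lines, and 0 were seen in B6 alone. The neighbouring anchors over Gm21411 and Gm13140 showed the same direction. Together the 3 anchors had 7 and 6 counts with segment 1 in B6 against 113 and 155 in D2. Their contacts with the other anchors of the window were 46.8 and 39.3 CPM in B6 and 45.9 and 45.5 in D2, and those outside it 11 and 8.93 in B6 and 13 and 12.9 in D2. Outside the window both D2 lines thus also lay above both B6 lines, by less than with segment 1, where the summed values were 2.41 and 2.14 CPM in B6 and 40.8 and 52.6 in D2.

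**Figure D3:**
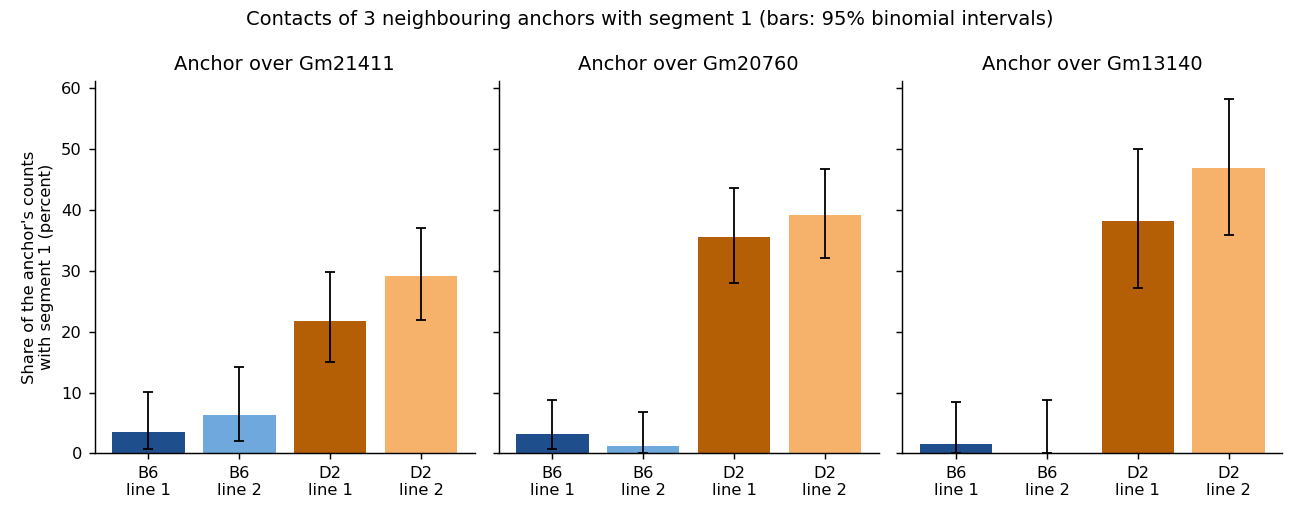
Share of the counts of 3 neighbouring anchors that joined them to segment 1, in percent, for the 4 libraries, with 95% exact binomial intervals for counting error. The D2 bars stand between 21.8% and 47% and the B6 bars between 0% and 6.33%.

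Most of these contacts joined the first 12 anchors of the window to anchors 54 to 56, with 0 and 2 counts in B6 against 107 and 147 in D2, a ratio of 127 (95% exact interval 34.8 to 1054). The maps of all pairs, from which the blocks of anchors compared here were chosen, showed more such contrasts. The first 12 anchors had 28 and 32 counts with anchors 40 to 46 (Zfp992 to Zfp981) in B6 against 62 and 103 in D2 (log2 ratio 1.45). In turn anchors 40 to 46 had 156 and 176 counts among themselves in B6 against 28 and 32 in D2 (log2 ratio -2.47). Anchors 75 to 87, from beside Zfp988 to beyond Zfp985, had 117 and 131 counts in B6 against 11 and 8 in D2 with anchors 88 to 95, which hold Zfp534 and the body of Zfp984 (log2 ratio -3.70). Among themselves anchors 88 to 95 had 51 and 51 counts in B6 against 1 and 0 in D2, a ratio of 102 (17.9 to 4070). These blocks were chosen for their contrast, and others overlapped between strains, such as anchors 1 to 12 with 75 to 87, at 28.5 and 25.3 CPM in B6 and 26.7 and 41.4 in D2.

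**Figure D4:**
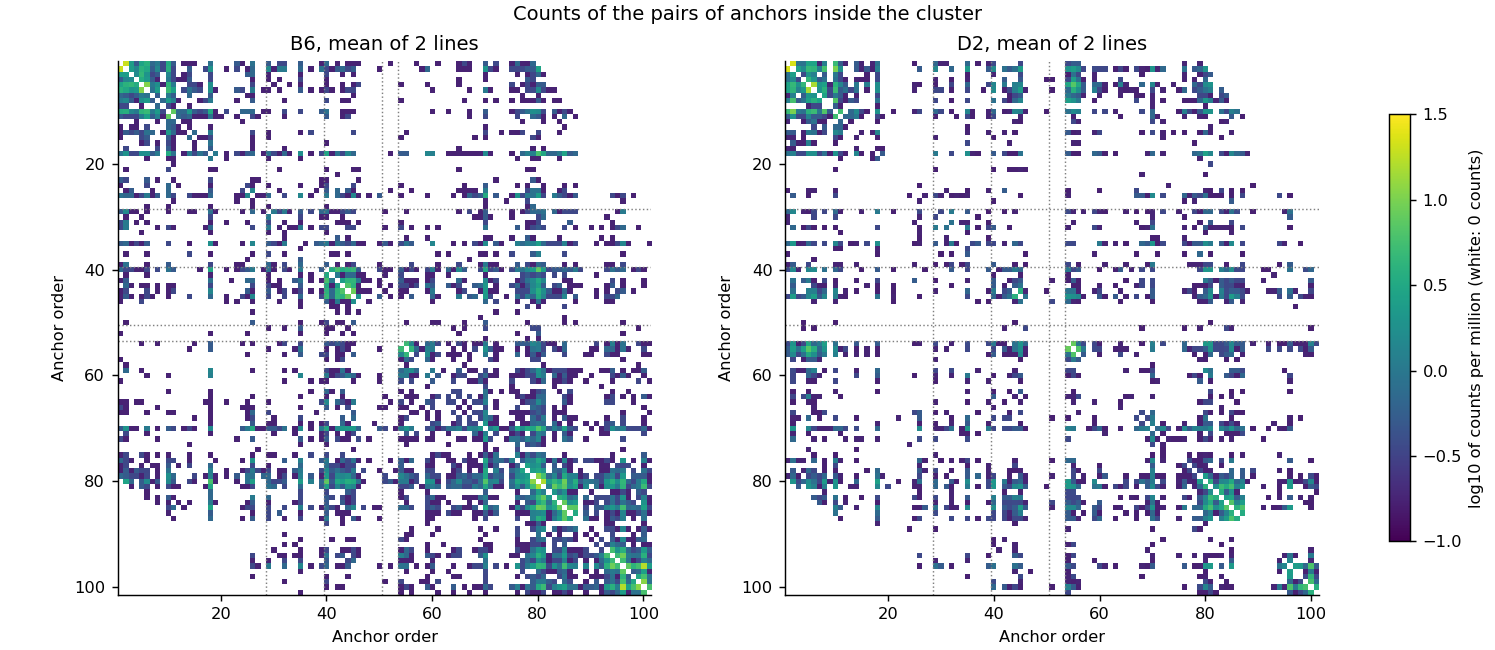
Mean CPM of the pairs of anchors inside the window in B6 (left) and D2 (right), on a log10 colour scale, with anchors in chromosome order on both axes; white is 0 counts, and dotted lines are gaps of 50 kb or more in the reference. The block joining anchors 1 to 12 with anchors 54 to 56 is filled in D2 and nearly empty in B6, and the block of anchors 88 to 95 is filled in B6 and nearly empty in D2.

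The window holds 5 gaps of 50 kb or more in the reference, which separate 5 segments with anchors. Segment 1 had 655 and 681 CPM in B6 against 616 and 688 in D2, with overlapping strains (log2 ratio -0.04). Segment 2, with Zfp987 and Zfp600, had 105 and 98.5 in B6 and 75.5 and 90.7 in D2, and 0 of its 8 tested anchors were called. Segment 3, with Zfp992 and Zfp981, had 236 and 213 in B6 against 100 and 137 in D2 (log2 ratio -0.92; 6 of 8 tested anchors lower). Segment 4 held only 21 and 17 counts in B6 against 5 and 8 in D2 (log2 ratio -1.55), and its 1 tested anchor was not called. Segment 5 had 1149 and 1138 CPM in B6 against 537 and 652 in D2 (log2 ratio -0.94), with 34 of its 45 tested anchors lower and 3 higher. Lower anchors were thus not spread evenly. Within segment 1 they were 8 of 24 tested anchors, at Smarca5-ps and from Gm13249 to Zfp986. Whether the D2 genome has these segments in the order and copy number of the B6 reference was not tested.

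By distance, the log2 ratio of D2 to B6 was -0.84 under 20 kb, -0.69 from 20 to 100 kb, -0.81 from 100 to 500 kb and -0.41 at 500 kb and more. Pairs of at least 500 kb held 33% and 30.5% of the member counts in B6 and 35.9% and 38.8% in D2, whereas over the whole table they held 18.9% and 17.8% in B6 and 16.1% and 16.8% in D2. The share of far contacts was thus higher in D2 within the window and lower in D2 over the table. The value that the authors' single-library files give for each pair, taken here as a q-value, was under 0.01 for 482 and 420 member pairs in B6 against 270 and 347 in D2. On all of chromosome 4 it was under 0.01 for 14197 and 13150 pairs in B6 against 10835 and 11894 in D2, so fewer passed in D2 there too. Of the member pairs, 93 passed in both B6 lines and neither D2 line, 54 in both D2 lines and neither B6 line, and 69 in all 4. This split was not counted for pairs outside the window.

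Part of the window is repeated within the reference. Of its 75-base windows, 43.1% occur once in the assembly, and 431871 of its bases are not known. Counts per kb of anchor in B6 were higher where the unique share was higher (Spearman rho 0.90 over 86 anchors, a description across anchors that share libraries). The log2 fold change went with it less closely (rho 0.30). At the 43 anchors with at least 53% unique windows, 24 were lower and 6 higher in D2 (median log2 -0.73). At the 43 others 24 were lower and 0 higher (median -1.23). Among the 13 anchors with 90% or more, 8 were lower and 2 higher, with a median of -0.74. These 8 all lay in segment 5, from chr4:147533491 on, and the 2 higher ones in segment 1. The anchor over Zfp933 had 100% unique windows (log2 -1.01), that over Zfp978 had 11.6% (log2 -2.02) and that over Zfp534 had 22.6% (log2 -3.32). How well D2 reads map to this B6 reference was not tested.

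**Figure D5:**
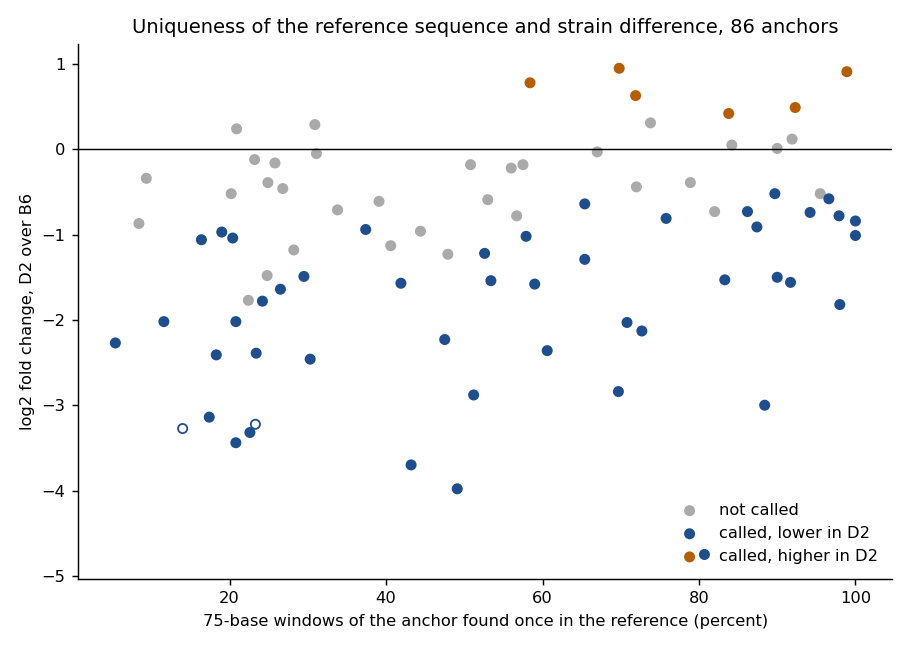
Log2 fold change of D2 over B6 of the 86 tested anchors (y axis) against the percent of 75-base windows of the anchor that occur once in the reference (x axis); open points are anchors with no D2 count, drawn at the lower bound of their fold. Anchors lower in D2 occur at all levels of uniqueness, and the 6 that were higher lie at 58.4% or more.

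Other clusters of zinc finger genes gave values on either side. In 17 other regions with at least 5 Zfp genes within 1 Mb, the log2 ratio of D2 to B6 ran from -0.90 to 0.45 with a median of 0.15, and from 1.67% to 84% of their tested anchors were called. Ratios of -0.85 to -0.90 were found in 4 of these regions, 1 on chromosome 13, 2 on chromosome 7, and 1 on chromosome 8, and the other 13 had ratios of -0.08 or more. Of 799 other windows of 2.5 Mb with at least 1000 counts, 33 had a lower ratio than this one (median 0.05, SD 0.28). The 4 regions with low ratios had 0 anchors that were higher in D2, where the share of all tested anchors was 2.93%. Of the higher calls in this cluster, only that of Gm20760 was kept with each library left out. The contrast between the cluster and these regions was not tested.

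Of 21 genes of the pathway through which KRAB zinc finger proteins act, 15 were tested by the same gene test and edgeR called 3 higher in D2 (5.91% of all genes) and 0 lower (8.47% of all). Trim28, the corepressor that KRAB domains bind, held 1271 and 1216 counts in B6 against 2274 and 1478 in D2 (log2 0.60 ± 0.15, edgeR adjusted p = 0.00536). Morc2a, an ATPase of the same silencing pathway, gave 0.63 ± 0.16 and Fam208a, a subunit of the HUSH complex, 0.41 ± 0.13. Setdb1 gave 0.07 ± 0.15 and was not called. The median of the list was 0.25, against 0.06 for all genes. D2 line 1 held the largest count of all 3 called genes, and their values without that library are not given here. Summed over the list, the libraries held 3127 and 3097 CPM in B6 against 3856 and 3073 in D2. D2 line 2 thus lay below both B6 lines, and the higher sum was that of D2 line 1 alone.

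Markers of pluripotent cells had anchors at 8 of 11 genes, with 1905 and 2078 CPM in B6 against 3012 and 1989 in D2, so that D2 line 1 stood above the other libraries. Of these 8 genes, 3 were higher in D2 (Sox2, Nanog and Tbx3), against 5.91% of all genes. The rest were not called, with positive log2 values at Zfp42 (0.41) and Dppa3 (0.34). Those of Pou5f1 (-0.17), Klf4 (-0.24) and Prdm14 (-0.07) were negative. Tbx3 held 993 and 1196 counts in B6 against 1888 and 1145 in D2, so D2 line 2 lay below B6 line 2. Of 6 fibroblast markers only Thy1 had an anchor, at 10 to 22 counts a library, and the 7 markers of endoderm, ectoderm and mesoderm summed to 145 to 164 CPM, with Sox1 called higher in D2. The library name of D2 line 1 carries the mark 10cyc and the others 8cyc. What this mark means is not given. Without D2 line 1, the log2 ratio of all member counts was -0.55 and 41 of the member anchors were called.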

How the data were processed

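H3K27ac HiChIP was measured in 4 libraries. The authors deposited raw counts of read pairs per pair of anchors in 1 table, and files per library with counts and a column without a heading that was taken here as the q-value of the authors' loop caller. The submitters' processing notes name HiC-Pro 2.11.4, DESeq2 and mm10 without their roles, and filters are not given in the sources used here. Anchors were matched to GENCODE M21 start sites. The deposited counts were summed per anchor and per gene, kept at 20 counts or more, and tested over the whole genome with edgeR 4.0.16 (R 4.3.3) on strain, with library totals as sizes and Benjamini-Hochberg adjustment. Calls had an adjusted p under 0.05. A log2 fold change is D2 over B6, with its standard error from the fitted model. A feature with 0 counts in a strain was compared with 3 counts over that strain. The fold so given takes the count of the other strain as exact, so it is not a 95% limit. Such a feature, where tested, reached 20 counts through the other strain alone. A feature with 1 to 3 counts in a strain was given a ratio with its exact 95% interval.

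The members and lists were chosen with earlier results of these data known. Values were given for the 8 anchors and 6 pairs of smallest adjusted p in each direction (pairs sharing no anchor), called pairs with 0 counts in a strain, the 3 anchors of most counts, the 12 protein-coding genes of smallest adjusted p in each direction, and the 4 uncalled ones of most counts; other named items were chosen after their values were seen. Promoters were aligned with Biopython 1.88, and 75-base windows were counted over GRCm38.p6. On simulated counts the test recovered 55 of 100 anchors changed 2-fold and 92 of 100 changed 4-fold; for pairs it recovered 5 and 56 of 100, and for genes 86 and 98 of 100. Alternatives were TMM factors, DESeq2 1.42.0, other count minimums, chromosome 4 totals, a replicate block, other pair and start-site rules, and leaving out each library.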

Additional observations from a re-analysis of the deposited data

How the results depend on the processing

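No called anchor, gene or pair of the window changed sign under the alternatives run. With chromosome 4 totals the log2 ratio of all member counts was -0.48 and that of pairs leaving the window -0.40. The latter was -0.64 with TMM factors and -0.49 over pairs with at least 2 counts. With a library left out, these ratios ran from -0.75 to -0.55 and from -0.60 to -0.54, and that of pairs inside the window from -0.89 to -0.52. DESeq2 called 29 anchors (2 higher and 27 lower), 24 genes and 1 pair, and gave no adjusted p for 142 of the 160 pairs. Of pairs, 15 were called with no count minimum and 9 with a minimum of 50. With start sites of protein-coding transcripts only, 18 genes were called, since fewer genes were tested. With a library left out, 38 to 54 anchors, 30 to 38 genes and 10 to 22 pairs were called. Uncalled features changed sign: the Platr16 anchor (-0.03 over pairs at least 20 kb apart, -0.02 without B6 line 1, -0.10 without D2 line 1), Gm13212 (-0.03 with TMM, -0.01 with DESeq2, -0.11 to 0.21 with a library left out, of which -0.10 was without D2 line 2), Zfp990 (0.14 with chromosome 4 totals, -0.17 to 0.10 with a library left out) and Zfp600 (0.01 and -0.50 to 0.11 likewise). The cause was not tested. Replicate numbers did not pair the libraries (r = 0.00 over 51820 anchors), and with the replicate block 55 anchors, 42 genes and 27 pairs were called. The number of lines and the counts per pair limit what single pairs can show.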
